A study of Mus musculus with 16 samples.

Results

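The T cell receptor (TCR) complex and its coreceptors were followed through 10 genes, taken by symbol from the deposited mouse table of 26382 genes. They were the receptor constant-region genes *Trac*, *Trbc2* and *Trdc*, the signalling-chain genes *Cd3d*, *Cd3e*, *Cd3g* and *Cd247*, and the coreceptor genes *Cd4*, *Cd8a* and *Cd8b1*. All 10 were listed in the table and all 10 passed the filter on low values. Bulk RNA was sequenced from whole hamstring muscle of female C57BL/6 mice aged 8 to 10 weeks at injection, collected on day 14, in 16 libraries from 9 mice. HRS is histidyl-tRNA synthetase, the Jo-1 antigen, given as recombinant protein to induce myositis. By title, mice m862 to m866 received HRS (3 to 5 mg/mL by label) in the left leg, giving 5 HRS legs, and PBS in the right leg, giving 5 contralateral PBS legs labelled pbs_contr. PBS went into both legs of m867 and m868 (label pbs_only), which makes 4 libraries from 2 animals. Mice m860 and m861 carried the same treatment label, HRS at 3 to 5 mg/mL. Their titles instead name an MBP fusion protein at 2 to 3 mg/mL and no leg, so they are called HRS-MBP and kept apart. The labels' protocol describes injection of 50 µL into each side, which conflicts with the leg-by-leg titles. The titles were followed, and every contrast between legs of mice m862 to m866 depends on them.

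A T cell recognises antigen through a receptor of alpha and beta chains or, in a smaller lineage, gamma and delta chains. These chains have almost no cytoplasmic tail, and the signal enters the cell through the CD3 gamma, delta and epsilon chains and the CD247 (zeta) chain, whose activation motifs are phosphorylated by the kinase LCK and then bind ZAP70. CD4 and CD8 bind the major histocompatibility complex and bring LCK to the receptor, CD4 on helper cells and CD8 on cytotoxic cells. Healthy muscle holds few T cells, whereas in myositis they enter the tissue. In mice, CD4 is also made by some dendritic cells and CD8 alpha by others, so neither gene alone is particular to T cells. CD247 also signals in natural killer (NK) cells.

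In the files, *Trac* (chromosome 14 from 54220521 to 54224206) and *Trdc* (chromosome 14 from 54142851 to 54148868) are parts of one locus, with starts 77670 bases apart. *Trbc2* lies on chromosome 6 from 41546730 to 41548352. *Cd3g* (chromosome 9 from 44969572 to 44980431), *Cd3d* (from 44981786 to 44987339) and *Cd3e* (from 44998740 to 45009627) form a cluster, and *Cd3g* and *Cd3d* are read away from each other from starts 1355 bases apart. *Cd247* spans chromosome 1 from 165788681 to 165877277. *Cd8b1* (chromosome 6 from 71322788 to 71337494) and *Cd8a* (from 71373427 to 71379173) are neighbours, and *Cd4* lies on the same chromosome from 124864692 to 124888221. The positions match the GRCm38 genes of GENCODE M21. *Trac*, *Trbc2* and *Trdc* are annotated as T cell receptor constant genes and the other 7 as protein coding. Within *Trdc* the annotation places the variable segment *Trdv5* on the opposite strand, and the gene of *Cd247* overlaps *Pou2f1*, also on the opposite strand.

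The windows of 250 bases before the start of *Cd3g* and *Cd3d*, whose log2 fold changes were 2.67 and 2.60 between HRS and PBS legs, and of *Cd247*, at 0.64, are shown to set their sequence beside their values (RefSeq, GRCm38.p6, each written 5′ to 3′ on the gene's own strand).
Cd3g, chr9:44980432-44980681, minus strand: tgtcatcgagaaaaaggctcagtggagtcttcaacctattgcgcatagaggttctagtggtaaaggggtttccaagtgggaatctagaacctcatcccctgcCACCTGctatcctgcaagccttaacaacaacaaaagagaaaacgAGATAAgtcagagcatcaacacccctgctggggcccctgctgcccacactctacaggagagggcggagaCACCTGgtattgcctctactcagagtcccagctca
Cd3d, chr9:44981536-44981785, plus strand: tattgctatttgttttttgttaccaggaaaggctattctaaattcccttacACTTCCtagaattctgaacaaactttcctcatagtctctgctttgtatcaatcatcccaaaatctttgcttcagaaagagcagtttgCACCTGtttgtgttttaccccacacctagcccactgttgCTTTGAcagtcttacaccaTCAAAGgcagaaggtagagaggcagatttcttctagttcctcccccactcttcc
Cd247, chr1:165788431-165788680, plus strand: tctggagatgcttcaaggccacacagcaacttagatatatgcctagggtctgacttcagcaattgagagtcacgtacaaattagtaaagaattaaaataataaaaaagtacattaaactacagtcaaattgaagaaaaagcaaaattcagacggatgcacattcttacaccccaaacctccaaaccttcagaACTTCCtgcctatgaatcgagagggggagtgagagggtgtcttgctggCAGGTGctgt
Capitals mark 6-base words searched on both strands. They were the ETS factor word GGAAGT, the TCF and LEF factor word CTTTGA, the E-box CAGGTG, the GATA factor word AGATAA, the RUNX factor word TGTGGT and the promoter box TATAAA. The *Cd3d* window held 1 GGAAGT, 1 CAGGTG and 2 CTTTGA words, the latter beginning 73 and 54 bases before the start. The *Cd3g* window held 2 CAGGTG words and 1 AGATAA, and the *Cd247* window held 1 GGAAGT and 1 CAGGTG. Among 32851 windows of the same length, 19.7% held GGAAGT, 17.2% CAGGTG, 13.8% CTTTGA, 9.99% AGATAA, 14.0% TGTGGT and 12.4% TATAAA. Such matches describe the sequence only. Windows were at hand for 5 of the 10 genes.

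The implied depth was 37300000 to 73900000 reads in the HRS legs, 24700000 to 72800000 in the PBS legs, 8600000 to 40700000 in the PBS-only legs and 37300000 to 39600000 in the HRS-MBP libraries. The worth of 3 reads, used as a floor of detection, was 0.0324 to 0.364 normalized counts and was highest in the right leg of m868. Fold changes below are limma values on log2(normalized count + 0.5), and a gene was called at an adjusted p (Benjamini-Hochberg over 16414 genes) under 0.05 with an absolute log2 fold change above 1. The HRS leg of m864 had the highest value of all 10 genes among the HRS legs, and the HRS leg of m866 the lowest of 9 (all but *Cd247*). Muscle fibre markers (*Acta1*, *Ckm*, *Myh4*, *Myh1*, *Tnnt3* and *Actn3*) summed to 36201.6 in the first and 151456 in the second, against 61128.5 to 88913.5 in the other 3 HRS legs and 108993 to 178295 in PBS legs. Mitochondrial genes took 3.41% and 11.1% of these 2 libraries, and 9.69% to 11.2% of PBS legs. The part of fibre RNA in the results was not tested, and in bulk tissue fewer cells of a type and less RNA per cell cannot be told apart.

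Receptor constant regions were at low levels in PBS legs and above 3 reads in every HRS leg. *Trac*, the alpha constant region, was at 5.14, 2.85, 15.0, 2.85 and 2.77 normalized counts in the HRS legs of m862 to m866 and at 0.353, 0.148, 0.0924, 0.0882 and 0.296 in their PBS legs. The PBS-only legs lay between 0.121 and 0.521, so the HRS legs did not overlap either control group. The log2 fold change between HRS and PBS legs was 2.87 (standard error, SE, 0.354, adjusted p = 1.9e-05, limma). In reads, this was the worth of 1702 in the HRS legs against 36 in the PBS legs. Read ratios between groups, here and below, are scaled for the worth of 1 read in each group's libraries. The scaled ratio was 28.6 (95% exact interval 20.6 to 41.0, counting error only), and 16.6 without m864.

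*Trbc2*, one of a pair of near-identical beta constant regions, was at 5.89, 4.48, 17.7, 3.80 and 2.7 in the HRS legs and at 0.127, 3.9e-11, 0.339, 0.118 and 0.440 in the PBS legs of the same mice. Its log2 fold change was 3.13 (SE 0.362, adjusted p = 1.1e-05, limma). Reads of *Trbc1* and *Trbc2* can be split by estimate, so the split between them is uncertain. Their sum was 4.58 to 27.2 in HRS legs and 0.118 to 0.781 in PBS legs, with *Trbc2* at 54.1% to 65.0% of it in HRS legs.

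*Trdc*, the delta constant region, had the smallest fold change of the 3 constant regions. It was at 2.61, 2.39, 2.64, 1.41 and 0.904 in the HRS legs and 0.192 to 0.277 in the PBS legs, with a log2 fold change of 1.66 (SE 0.226, adjusted p = 4.4e-05, limma). In the HRS leg of m864, where *Trac* was highest by a wide gap, *Trdc* (2.64) was little above its level in m862 (2.61). Without correction for length, *Trdc* reached 0.839 of the *Trac* value in the HRS leg of m863 and 0.176 in that of m864. Its exons are longer, at 3865 bases against 935. Per kb of exon, the HRS-leg means were 0.515 for *Trdc* and 6.12 for *Trac*. The worth of 656 reads in HRS legs stood against 47 in PBS legs, a ratio of 8.45 (95% exact interval 6.28 to 11.6), below the interval for *Trac*. A difference between *Trac* and *Trdc* over mice was not tested.

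**Figure D1:**
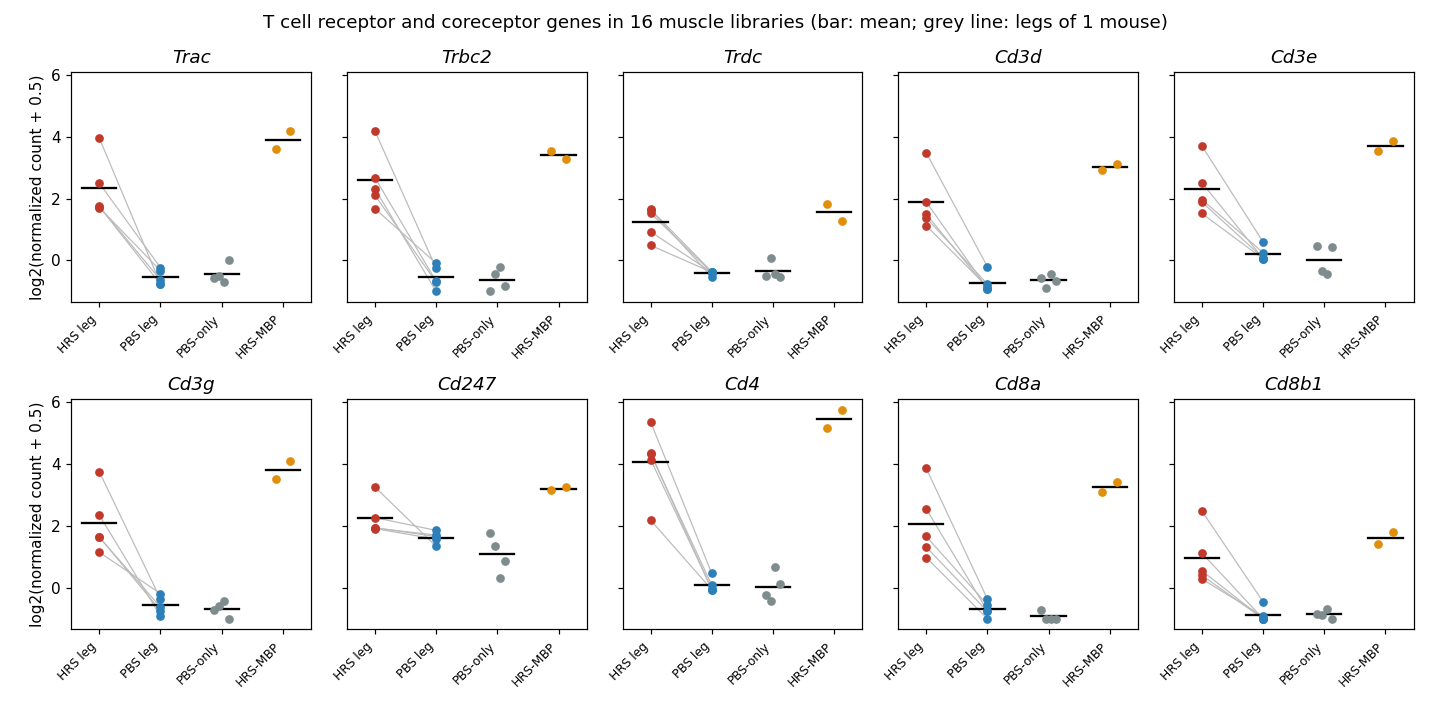
The 10 genes in the 16 libraries, each point 1 library on a log2(normalized count + 0.5) axis, with bars at group means and grey lines joining the legs of 1 mouse. In each panel the 5 HRS legs lie above the 5 PBS legs, and for *Cd247* the gap is narrow (lowest HRS leg 3.26, highest PBS leg 3.11).

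The 3 genes of the CD3 cluster rose together. *Cd3d* was at 3.22, 2.32, 10.7, 2.10 and 1.68 in the HRS legs and at 0.0320, 0.0330, 0.369, 0.0882 and 0.0539 in the PBS legs, with a log2 fold change of 2.60 (SE 0.340, adjusted p = 3e-05, limma). *Cd3g* was at 4.59, 2.62, 12.9, 2.60 and 1.71 against 0.0320 to 0.377, with a log2 fold change of 2.67 (SE 0.367, adjusted p = 4.7e-05, limma). *Cd3e* was at 5.21, 3.41, 12.5, 3.20 and 2.37 against 0.539 to 1.02, with a log2 fold change of 2.11 (SE 0.332, adjusted p = 0.000147, limma). The level of *Cd3e* in PBS legs was above that of its neighbours, 0.670 ± 0.204 (SD, n = 5) against 0.115 ± 0.144 for *Cd3d* and 0.186 ± 0.139 for *Cd3g*. Per kb of exon these means were 0.164, 0.0635 and 0.0570. In reads the rise was 8.22-fold for *Cd3e* (95% exact interval 6.82 to 9.98), 45.5-fold for *Cd3d* (27.9 to 79.9) and 28-fold for *Cd3g* (19.8 to 41.1), where *Cd3d* rested on the worth of 16 PBS reads and *Cd3g* was 42.8-fold higher without m866.

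*Cd247*, the zeta chain, differed from the rest of the complex in its base level. It was at 4.31, 3.30, 9.04, 3.26 and 3.34 in the HRS legs and at 3.11, 2.75, 2.02, 2.47 and 2.65 in the PBS legs. The groups did not overlap and all 5 mice were higher in the HRS leg, but the log2 fold change of 0.64 (SE 0.277, adjusted p = 0.0576, limma) passed neither threshold. The call depended on the scaling. *Cd247* was called with equal totals (1.005, adjusted p = 0.0109, limma) and with limma-voom (1.02, adjusted p = 0.0111), was at 0.22 (adjusted p = 0.502) with quantile normalization, settings that put the median of all tested genes at 0.46, 0.48 and -0.16. Without m864 it was at 0.32 (adjusted p = 0.293, limma). With *Cd4* it was 1 of 2 members above 3 reads in every PBS library. Per kb it had the highest PBS-leg mean of the 10 genes, 0.488 ± 0.0747 (SD, n = 5), where *Trbc2* followed at 0.296 ± 0.259, above it in 2 of the 5 legs. In the HRS legs it was ninth of 10. NK cell markers, genes of cells that also use CD247, were low in PBS legs (summed level 0.559 to 2.75 over 8 genes), and the source of the PBS-leg *Cd247* reads was not tested.

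*Cd4* was at 20.1, 17.1, 40.5, 19.6 and 4.05 in the HRS legs and at 0.449, 0.478, 0.878, 0.559 and 0.458 in the PBS legs. The leg of m866 stood below the other HRS legs and still above every PBS leg. Its log2 fold change, 4.0 (SE 0.418, adjusted p = 4.8e-06, limma), was the largest of the 10 on this scale, which understates low genes. In reads the ratio was 39.9 (95% exact interval 32.7 to 49.2), below those of *Cd8b1*, *Cd3d*, *Trbc2* and *Cd8a*, whose intervals all overlap it. *Cd8a*, the CD8 alpha chain, was at 5.35, 2.66, 14.0, 1.99 and 1.46 against 0 to 0.277, with a log2 fold change of 2.76 (SE 0.399, adjusted p = 7.1e-05, limma). The ratio in reads was 40.9 (95% exact interval 27.2 to 64.7), and 63.6 without m863. *Cd8b1*, the CD8 beta chain, was at 1.68, 0.820, 5.07, 0.961 and 0.717 against 0 to 0.231, with no read in 3 of the 5 PBS legs and a log2 fold change of 1.84 (SE 0.327, adjusted p = 0.000394, limma). A count of 0 allowed up to 0.0494 to 0.0961 normalized counts in those legs. Of the 6 *Cd8b1* reads in the PBS legs, 5 came from m864.

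Between HRS and PBS legs, 9 of the 10 members were called higher and *Cd247* was not called, where 16.9% of all tested genes were called higher and the median over all tested genes was 0.08 on the log2 scale. In all 10 the groups did not overlap (18.3% of tested genes did not overlap with the HRS legs higher), and the exact permutation p was 0.00794 for each, the smallest that 5 against 5 allow. All 10 were higher in the HRS leg of 5 of 5 mice (26.3% of tested genes were), with an exact sign-flip p of 0.0625, the smallest that 5 mice allow. For 7 members both PBS group means were under the filter of 0.5, so they were tested only because HRS or HRS-MBP libraries were high, and their calls are descriptions.

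**Figure D2:**
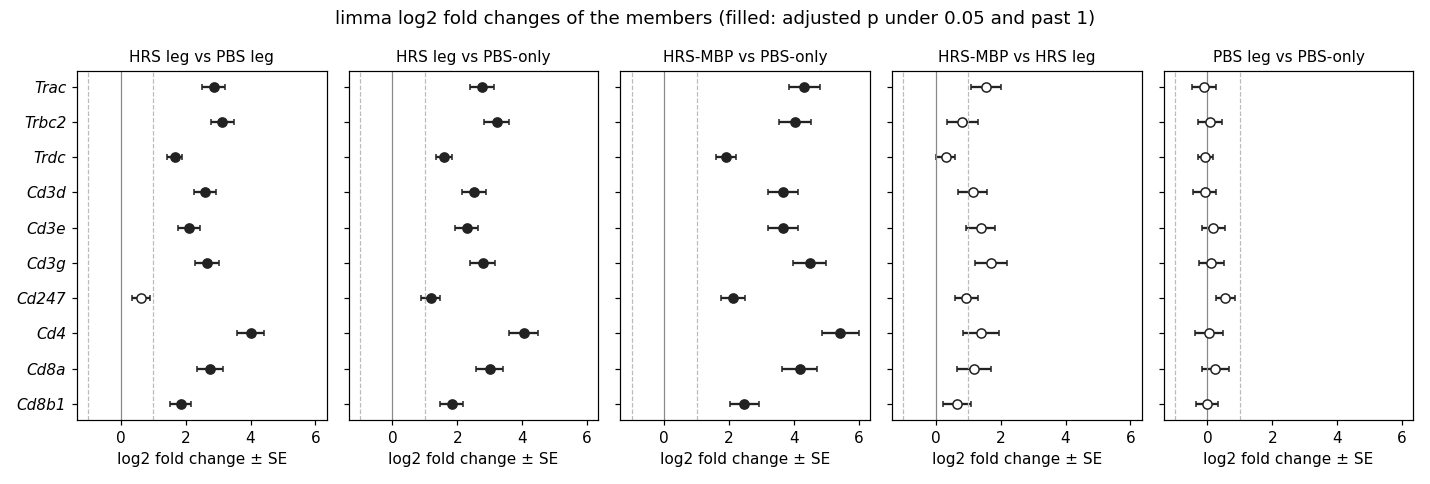
limma log2 fold changes with standard errors in 5 comparisons, filled where a gene was called. The 4 members of the CD3 and zeta group split in the first panel, with *Cd3d*, *Cd3e* and *Cd3g* between 2.11 and 2.67 and *Cd247* at 0.64, and the last panel, PBS legs against PBS-only mice, stays within -0.11 and 0.54.

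The PBS-only mice gave a second control and share the HRS legs with the comparison above. All 10 members were called higher in the HRS legs than in the PBS-only libraries, where 18.9% of tested genes were called higher. In all 10 the groups did not overlap, as in 26.6% of tested genes, and the exact permutation p was 0.0159, the smallest that 5 against 4 allow. The log2 fold change was 4.05 for *Cd4*, 3.21 for *Trbc2*, 3.00 for *Cd8a*, 2.79 for *Cd3g*, 2.77 for *Trac*, 2.52 for *Cd3d*, 2.29 for *Cd3e*, 1.82 for *Cd8b1* and 1.59 for *Trdc*. *Cd247* was called here at 1.18 (SE 0.294, adjusted p = 0.00341, limma). That call rested on the PBS-only legs of m868, at 0.739 and 1.34, beside 2.91 and 2.06 in m867. Without m868 its log2 fold change was 0.70 (adjusted p = 0.0768, limma), and without m864 it was 0.93.

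The contralateral PBS legs were also set against the PBS-only mice, to compare the PBS-injected side of HRS mice with mice given PBS alone. None of the 10 members was called by limma, and none had an unadjusted p under 0.05, where 1 of the 16414 genes (0.00609%) was called and 902 (5.5%) had such a p. The differences lay between -0.11 (*Trac*) and 0.54 (*Cd247*) on the log2 scale, with standard errors of 0.240 to 0.443. *Cd247* had the lowest unadjusted p among them, 0.0832. The 10 members had the worth of 6 (*Cd8b1*) to 490 (*Cd247*) reads over all PBS legs and 4 to 180 over all PBS-only libraries, which limits what this contrast can show.

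The HRS-MBP mice had the highest mean of every member. *Cd4* was at 35.2 and 53.5, *Trac* at 11.7 and 17.5, *Cd3g* at 11 and 16.4, *Cd3e* at 11.1 and 14.1, *Cd3d* at 7.09 and 8.12, *Cd247* at 8.48 and 8.96, *Trbc2* at 11.2 and 9.21, *Cd8a* at 8.07 and 10.1, *Cd8b1* at 2.18 and 2.98, and *Trdc* at 3.05 and 1.93. Against the PBS-only mice, whose libraries this contrast shares with the previous ones, all 10 were called higher (20.7% of tested genes were), from 1.90 for *Trdc* to 5.43 for *Cd4* on the log2 scale. For 9 members, all but *Trdc*, both HRS-MBP libraries lay above the HRS legs of m862, m863, m865 and m866, while for no member did both lie above that of m864.

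Directly against the 5 HRS legs, none of the 10 members was called by limma (0.463% of tested genes were called), although 7 had an unadjusted p under 0.05, as had 14.4% of all tested genes. The largest log2 differences were those of *Cd3g* (1.70, adjusted p = 0.144), *Trac* (1.56, adjusted p = 0.16) and *Cd3e* (1.38, adjusted p = 0.185), and the smallest was that of *Trdc* (0.31, adjusted p = 0.661). The result turned on 1 animal. Without m864, 8 members were called higher in HRS-MBP, all but *Cd4* and *Trdc*, from 1.02 for *Cd8b1* to 2.11 for *Cd3g*, in a fit that called 3.1% of all tested genes higher. If the HRS-MBP titles hold, their protein and concentration both differ from the label of the HRS legs and cannot be told apart. By label, both groups had the same treatment. Which legs of the HRS-MBP mice were injected is not stated.

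The balance of *Cd4* to *Cd8a* was compared next. In HRS legs *Cd4* exceeded *Cd8a* by 3.75, 6.45, 2.89, 9.83 and 2.77 times in m862 to m866, or by 3.38, 5.82, 2.61, 8.87 and 2.49 times per kb of exon. The *Cd4* share of *Cd4* plus *Cd8a* reads was 73.4% in m866, 74.3% in m864, 78.9% in m862, 86.6% in m863 and 90.8% in m865. The HRS-MBP libraries, at 81.3% and 84.1%, lay within that range. With a pseudocount of 0.5, the log2 ratio was 2.0 ± 0.735 (SD, n = 5) in HRS legs and 0.76 ± 0.165 (SD, n = 5) in PBS legs, a difference of 1.24 (two-sided exact permutation p = 0.00794, the lowest that 5 against 5 give).

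This difference did not hold without the pseudocount. The pooled PBS legs had 98 *Cd4* and 23 *Cd8a* reads, a *Cd4* share of 81.0% (95% exact interval 72.9% to 87.6%), and the pooled HRS legs had 6451 and 1553, a share of 80.6% (79.7% to 81.5%). These intervals cover counting error only, and single HRS legs ran from 73.4% to 90.8%. Without m864 the ratio of pooled *Cd4* to *Cd8a* reads was 5.44 in HRS legs (95% exact interval 5.03 to 5.88) and 4.65 in PBS legs (2.73 to 8.37). At levels near 0.1 the pseudocount draws the ratio of PBS legs towards 1, and with a pseudocount of 1/8 the difference fell to 0.62 (exact permutation p = 0.175). So no shift of the *Cd4* to *Cd8a* balance between HRS and PBS legs could be detected at this depth, and the PBS interval spans ratios from 2.68 to 7.03. Against PBS-only mice the log2 ratio was higher by 1.05 in HRS legs (exact permutation p = 0.0635), while pooled reads gave 36 to 4 in those mice. With *Cd8b1* in place of *Cd8a*, the log2 ratio with a pseudocount of 0.5 was 3.11 ± 0.770 in HRS legs and 0.95 ± 0.0830 in PBS legs (difference 2.16, exact permutation p = 0.00794, n = 5 and 5). It rested on 6 *Cd8b1* reads in all PBS legs, 5 of them from m864. The ratio of pooled reads, 11.7 in HRS legs, was within the PBS interval of 7.24 to 45.6 around 16.3. Without m864 it was 15.7 in HRS legs and 79 in PBS legs, the latter from 79 reads to 1 with a 95% exact interval from 13.8 to 3159.

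**Figure D3:**
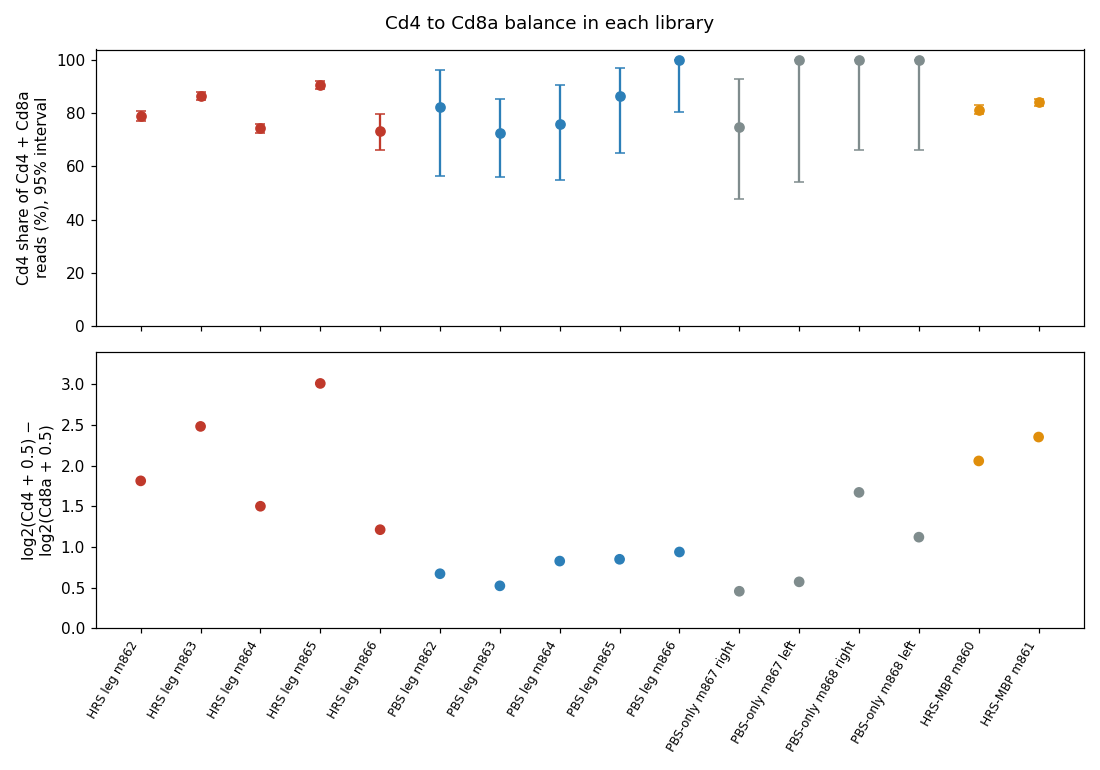
The *Cd4* to *Cd8a* balance per library, above as the share of *Cd4* in the reads of both genes with 95% exact intervals and below as a log2 ratio with a pseudocount of 0.5. The shares of PBS legs (72.5% to 100%) surround those of HRS legs (73.4% to 90.8%), whereas the log2 ratios separate the same libraries.

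How far the members followed each other was described by correlating deviations from group means over the 16 libraries, which include both legs of 7 mice. For the mean of *Cd3d*, *Cd3e* and *Cd3g*, the most alike genes were *Cd8b1* (r = 0.977), *Lat* (0.971), *Rasgrp1* (0.970), *Adgrg5* (0.962) and *Klrg1* (0.962). *Lat* and *Rasgrp1* act below the TCR, and *Klrg1* marks effector T and NK cells. For *Cd8a* they were *Cd69* (0.966), *Cst7* (0.949), *Adgrg5* (0.946), *H2-Eb2* (0.946) and *Art2b* (0.944), and its r with the 3 CD3 genes was 0.896 to 0.935. Without both legs of m864 that r was 0.632 to 0.805, and the genes nearest to *Cd8a* were *Cd69* (0.954), *Pax5* (0.891), *Slpi* (0.864), *Arhgef37* (0.864) and *Cited4* (0.859). *Cd4* had other neighbours, *Apobec1* (0.957), *Trpm2* (0.956), *Cd300lf* (0.956), *Mppe1* (0.947) and *Spic* (0.941). Its r with the 3 CD3 genes was 0.658 to 0.762 and with the 6 macrophage markers 0.671 to 0.815, while *Cd8a* had 0.380 to 0.715 with the latter. *Cd300lf* is a receptor of myeloid cells and *Spic* a factor of macrophages. The order for *Cd4* depended on the mouse left out. Without both legs of m866 the nearest were *Cxcr3*, *Sp110*, *Ly6c2*, *B2m* and *Slamf7*, and the median r was 0.769 with the CD3 genes and 0.606 with the macrophage markers. Without both legs of m864 these medians were 0.616 and 0.716, and the nearest were *Trpm2*, *Apobec1*, *Phkg2*, *Cd300lf* and *Crmp1*. For the CD3 mean, without both legs of m864, *Pax5* (0.898), *Cd69* (0.898), *Lat* (0.886), *Klrg1* (0.879) and *Slpi* (0.870) came first.

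Genes that carry the signal below the receptor were examined as a list. Of 30 listed TCR signalling genes 27 were tested, 20 were called higher and none lower in HRS against PBS legs, where 16.9% of all tested genes were called higher. For 8 of the 20 both PBS group means were under the filter, so those calls are descriptions, and of the other 19 genes 12 were called higher. The median log2 fold change of the 27 was 1.99, against 0.08 over all tested genes. The largest was that of *Ptprc*, the CD45 phosphatase of all leukocytes, at 3.93, from 3.62 to 9.47 in PBS legs to 58.0 to 279 in HRS legs. The 7 genes not called were *Tec* (0.68), *Plcg1* (0.47), *Cblb* (0.44), *Pag1* (0.24), *Nck1* (0.21), *Dgka* (0.07) and *Prkcq* (-0.47), which all had PBS-leg levels of at least 4.66. So did the called genes *Fyn* (11.6 to 15.5), *Csk* (11.2 to 21.8) and *Fyb* (5.93 to 8.14). *Trat1*, *Sit1* and *Sh2d1a* were under the filter. Among 10 other T cell genes, 9 were called higher, 5 of them with both PBS group means under the filter, led by *Spn* (CD43) at 3.74, and the costimulatory receptor gene *Cd28* was not (-0.09), at 4.20 to 7.04 in HRS legs and 3.20 to 11.1 in PBS legs.

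The members were then set against *Ptprc*. For each 100 normalized counts of *Ptprc*, *Trac* was at 2.47 to 5.37 in HRS legs, 0.976 to 9.73 in PBS legs and 5.78 to 7.28 in HRS-MBP. *Cd4* was at 6.98 to 18.5, 5.03 to 12.4 and 17.4 to 22.3 in the same order. *Cd3e* was at 2.78 to 4.8 in HRS legs and higher, at 5.92 to 15.0, in PBS legs, while *Cd3g* was at 2.25 to 4.63 in HRS legs and 0.885 to 4.14 in PBS legs, which overlap. In pooled reads *Ptprc* rose 17.4-fold (95% exact interval 16.5 to 18.4) between PBS and HRS legs and the macrophage marker *Adgre1* 18.6-fold (17.8 to 19.5), within the range of the members (1.72-fold for *Cd247* to 55.6-fold for *Cd8b1*). Without m864 the *Cd8b1* ratio was 175, from 267 reads to 1, with a 95% exact interval from 31.1 to 6932.

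Markers of other cell types were counted in the same contrast, where 16.9% of all tested genes were called higher. All 6 macrophage markers were called higher, led by *Adgre1* (4.13), with a sum of 978 to 4954 in HRS legs against 87.6 to 247 in PBS legs. The 5 tested neutrophil markers were called higher, led by *Csf3r* (4.19) and 3 of them with both PBS group means under the filter, while *Ly6g*, under the filter, was at 0 to 0.270 in HRS legs. Of 6 type 1 dendritic cell markers, cells that carry CD8 alpha in lymphoid organs, 5 were called higher, led by *Wdfy4* (2.95), and *Cadm1* was not (0.54). Of 5 tested plasmacytoid dendritic cell markers 3 were called higher, led by *Spib* (2.10) and 2 of them low in both PBS groups in the same way, *Cox6a2*, which muscle also makes, was called lower (-1.49), *Tcf4* was not called (0.41) and *Klk1* was under the filter. Of 6 muscle fibre markers 3 were called lower, led by *Actn3* (-1.43), and *Acta1* (-1.0), *Myh4* (-1.18) and *Myh1* (-0.54) were not called. All 8 NK cell markers and all 6 B cell markers had both PBS group means under the filter and were tested only because HRS or HRS-MBP libraries were high, so their values are given as descriptions. The NK cell markers summed to 16.9 to 55.4 in HRS legs against 0.559 to 2.75 in PBS legs, with the largest log2 fold change for *Prf1* (3.05). Among the B cell markers it was that of *Cd22* (3.37), and *Pax5* was at 0.99 (adjusted p = 0.0153, limma). The part of these cells in the levels of *Cd4*, *Cd8a* and *Cd247* was not tested.

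Lymph node tissue was looked for because a node taken with muscle would bring TCR genes. *Glycam1*, *Madcam1* and *Chst4*, genes of node venules, had no more than 3 reads in any PBS leg. They were highest in the HRS leg of m864, at 1.64, 0.304 and 0.13, the leg that was also highest in all 10 members. *Cr2* and *Fcer2a* reached 0.482 and 1.34 in HRS legs. Both tested genes of this list were called higher. They were *Ccl21a* (2.18), which is also made by lymphatic vessels, and *Cxcl13* (1.38, at 1.74 to 19.0 in HRS legs). The sum over the 7 listed genes did not set m864 apart, at 39.6 there and 22.6 to 39.5 in the other HRS legs. Without m864 the same 9 members were called between HRS and PBS legs (14.9% of tested genes were called higher), from 1.57 for *Trdc* and *Cd8b1* to 3.78 for *Cd4*, and the same 9 were called without any other single mouse.

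Among gamma-delta T cell genes, *Sox13* was not called (-0.09). The gamma constant regions *Trgc1*, *Trgc2* and *Trgc4* were under the filter, at 0.214 to 0.761, 0.266 to 1.67 and 0.405 to 0.982 in HRS legs and at no more than 0.108 in PBS legs. *Cd163l1*, *Blk*, *Il23r*, *5830411N06Rik* and *Trdv4* were also under the filter and reached at most 1.23 in HRS legs. Genes of receptor rearrangement, used by developing T cells, were low. *Rag1* was at 0 to 0.0357 and *Ptcra* at 0 to 0.0893 in HRS legs, and *Dntt* reached 0.625, while *Rag1* reached 0.728 in a PBS-only library.

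Variable segments, the part of the receptor that differs between T cell clones, were counted last. The table lists 48 of them (23 alpha, 19 beta, 3 gamma and 3 delta). Segments above 3 reads numbered 17, 17, 34, 8 and 4 in the HRS legs of m862 to m866 and 32 and 30 in the HRS-MBP libraries, but 0 or 1 in each of the 9 PBS libraries. In m864, 13 alpha and 18 beta segments were above that floor. The 3 highest means in HRS legs were those of *Trbv13-2* (0.287, 85 reads over the 5 legs), *Trbv19* (0.184, 56 reads) and *Trgv2* (0.171, 48 reads), each in all 5 legs, against 0, 3 and 1 reads in the PBS legs. The constant regions, counted with *Trbc1* and the gamma genes, summed to 0.529 to 1.48 in PBS legs and 9.16 to 48.2 in HRS legs. With 48 to 489 segment reads per HRS leg, the numbers follow depth as well as content, and clones cannot be counted from them.

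**Figure D4:**
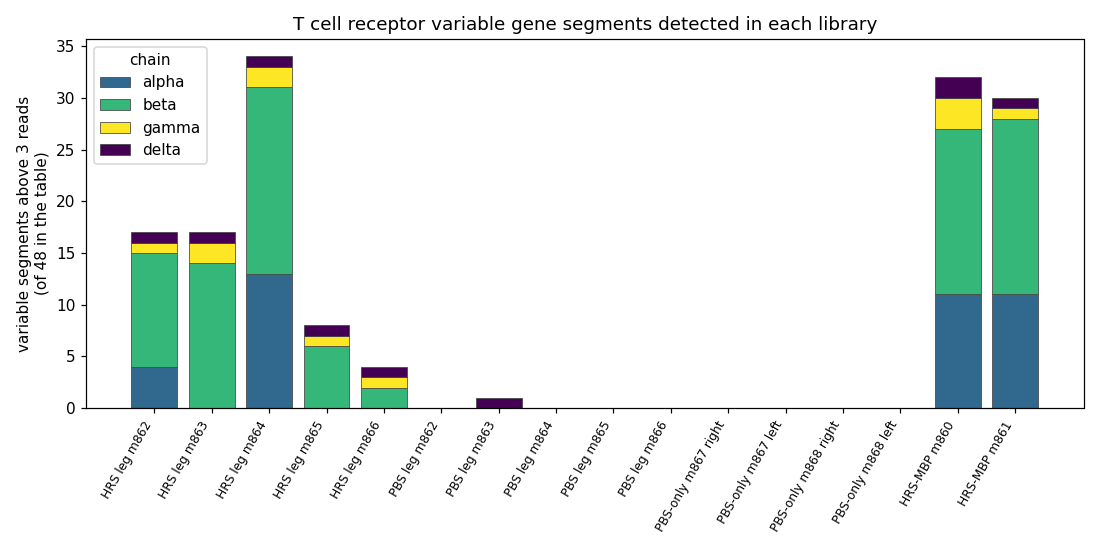
Number of T cell receptor variable segments above 3 reads in each library, stacked by chain. The HRS legs hold 4 to 34, the HRS-MBP libraries 30 and 32, and the 9 PBS libraries at most 1, the single one being a delta segment in the PBS leg of m863.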

How the data were processed

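Poly(A) RNA from whole hamstring muscle was sequenced on 3 Illumina instrument models per the labels. Which library ran on which is not given in the sources used here, so platform and treatment cannot be told apart. The submitters' processing notes name STAR 2.7.8a, limma and mm39/GRCm39, but 25652 of the 26382 table genes matched GENCODE M21 (GRCm38) by symbol and 99.0% of those had the same start and end, so positions are given in GRCm38. The values the authors deposited are a signal, normalized counts per gene with a scaling not stated, and are neither whole nor of equal total. Only 74.3% to 76.4% of low values (up to 20 steps) were whole multiples of the commonest step (tolerance 0.02 steps), so reads were not recovered and no count model was used. That step served as the worth of 1 read for floors, implied reads, ratios of reads and exact 95% intervals, which cover counting error only. Ratios of reads between groups were scaled by it, while ratios of *Cd4* to *Cd8a* or *Cd8b1* reads within a group are plain quotients.

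The 16414 genes whose mean reached 0.5 were fitted over all 16 libraries with limma 3.58.1 (R 4.3.3) on log2(value + 0.5) with a mean trend and 1 term per group. This scale understates the change of low genes. Single ratios were compared by two-sided exact permutation tests (SciPy 1.17.1, Python 3.11.15). Legs of 1 mouse are paired by animal (correlation of deviations from group means 0.119, 0.163, 0.0972, -0.0256 and -0.366 in m862 to m866). The 4 PBS-only libraries come from 2 mice, so p-values against them treat legs as separate. The named genes were the 10 members, the gene with the largest called change and all uncalled genes of each list, the 5 genes most alike to the CD3 mean, *Cd4* and *Cd8a*, and the 3 highest variable segments. Levels of other listed genes were added after their values were seen. One gene of the gamma-delta T cell list is not reported here. The members and lists were chosen with earlier results of these data known. Alternatives covered the pseudocount, filter, scaling, trend, voom, the libraries fitted, a mouse block and leaving out each mouse. In a simulation that shifted 200 of the 16414 genes (log2 change 1.5), the fit of HRS against PBS legs recovered 84% with 7 false calls, and that of HRS-MBP against HRS legs 74.5% with 6. It drew independent noise for each gene and library and counted genes at an adjusted p under 0.05 alone, without the fold threshold. Effects shared by genes of 1 library were not simulated, so its false calls do not describe the calls above.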

Additional observations from a re-analysis of the deposited data

Results flagged for a closer look

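Of 42 groups of 4 or 5 libraries examined, 13 held 1 library far from the others, where chance gives about 1 in 20. That rate does not hold for groups at a few reads. In PBS-only legs *Cd8a* had 4, 0, 0 and 0 reads, so the 1 library with reads stood apart of necessity. The members share animals and libraries, so these are not independent. In 7 of them the library was the HRS leg of m864, the highest for *Trac* (15.0, others 2.77 to 5.14), *Trbc2* (17.7, others 2.7 to 5.89), *Cd3d* (10.7, others 1.68 to 3.22), *Cd3e* (12.5, others 2.37 to 5.21), *Cd3g* (12.9, others 1.71 to 4.59), *Cd247* (9.04, others 3.26 to 4.31) and *Cd8b1* (5.07, others 0.717 to 1.68). The PBS leg of the same mouse was the highest PBS leg for *Cd3d* (0.369, others 0.0320 to 0.0882), *Cd4* (0.878, others 0.449 to 0.559) and *Cd8b1* (0.231, others 0 to 0.0269). *Trdc* was low in the PBS leg of m862 (0.192, others 0.264 to 0.277). In PBS-only libraries *Trdc* was high in the left leg of m867 (0.566, others 0.196 to 0.243), and *Cd8a* was above 0 only in the right leg of m867 (0.114).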

How the results depend on the processing

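No member changed direction between HRS legs, HRS-MBP and controls under any alternative, and the mouse block changed no call (9 members called, 3652 of all genes). The members called in HRS against PBS legs numbered 9 in each fit that left out a mouse, 10 with equal totals or voom, which added *Cd247*, and 7 with a pseudocount of 2, which lost *Trdc* (0.80) and *Cd8b1* (0.81). Against PBS-only mice 9 to 10 were called without 1 mouse and 7 with a pseudocount of 2, and HRS-MBP against PBS-only gave 10 without any mouse. HRS-MBP against HRS legs gave 0 to 8, the 8 without m864, and the count over all genes was 76, between 4 with only the groups compared and 562 without m864. PBS legs against PBS-only gave 0 members throughout and 0 to 3 genes. Equal totals moved the median of all genes between HRS and PBS legs from 0.08 to 0.46, voom to 0.48 and quantile normalization to -0.16, and the genes called higher were 2781 of 3810, 4259 of 4581, 4312 of 4563 and 2093 of 3725. The *Cd4* to *Cd8a* difference against PBS legs fell from 1.24 to 0.62 with a pseudocount of 1/8 and reversed to -0.037 in pooled reads (added after seeing the data). That reversal rested on m864, without which the pooled ratio was 5.44 in HRS legs and 4.65 in PBS legs. Against PBS-only mice the *Cd4* to *Cd8a* difference was 1.33 with a pseudocount of 2 and -1.12 in pooled reads. The pooled PBS-only ratio behind it, 9 in all, was 4.5 without m868, and 0 *Cd8a* reads remained without m867. With *Cd8b1* the pooled values were -0.48 and 0.38. The sign of the latter depended on 1 mouse, as the PBS-only ratio was 18 without m867 and 6 without m868, beside 11.7 in HRS legs. With a pseudocount of 0.5 and 1 mouse left out, the differences were 1.01 to 1.49, 0.61 to 1.49, 2.01 to 2.44 and 1.87 to 2.58 in the same order. The last was short of the threshold without m867 or m868, where the smallest possible exact permutation p is 0.0952. The shifts between settings follow the pseudocount, which exceeds most PBS levels, and depth limits any statement on the balance in PBS muscle.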
